A study of Mus musculus with 24 samples.

Results

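Adipocyte precursors carrying the Δpro#3 mutant of NFIA were compared with precursors carrying full-length NFIA, before differentiation was induced (day 0). The mutant lacks pro#3, the C-terminal end of the proline-rich domain of NFIA, and not the whole domain. The comparison takes the 3 Cre + Δpro#3 libraries and the 3 Cre + NFIA libraries of day 0, 6 of the 24 RNA-seq libraries of the series. Each library listed 24825 genes, and the 11217 genes of at least 200 bases with an FPKM of at least 1 in at least 3 of the 6 libraries were tested. FPKM counts the fragments of a gene, divided by its length in kilobases and by the library total in units of 1000000 fragments. Another 12341 genes of that length did not pass the level filter, and 238 shorter genes that did pass it were left out.

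All 6 libraries came from immortalised cells of the stromal vascular fraction (ingSVF) of mouse inguinal white fat. This fraction is a mixed preparation that holds adipocyte precursors beside other cells, and it was immortalised with a retrovirus for SV40 large T antigen. Both groups share Nfia flox/flox alleles, in which loxP sites flank an exon of Nfia, and a retrovirus for Cre recombinase, which removes that exon. They differ in the FLAG-tagged protein delivered with a pMXs retroviral vector, full-length NFIA or Δpro#3, so the expression of either protein did not depend on the Nfia promoter. The day 0 cells had received no differentiation cocktail. The ctrl cells and the Cre cells, with no added NFIA, were sampled at the same day in 3 libraries each, and all 4 cell types were sampled again at day 7 of differentiation. The labels do not say whether the 3 libraries of a group came from separate cultures or infections, so p-values measure the spread between these libraries, which may be technical.

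NFIA belongs to the nuclear factor I (NFI) family of transcription factors, which bind DNA as dimers at a palindrome of the sequence TTGGC and its complement. In fat precursors it acts upstream of PPARγ (Pparg), the nuclear receptor that drives adipogenesis, and PPARγ and C/EBPα (Cebpa) sustain each other's expression during differentiation. Precursors also respond to secreted signals before that step, among them BMP ligands, which commit mesenchymal cells to the fat lineage, and Wnt ligands, several of which hold it back.

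Sequencing depth differed between the groups. The Δpro#3 libraries held 12.3 to 12.8 M reads (M, 1000000) and the full-length libraries 9.44 to 10.7 M, with no overlap. With every library thinned at random to the smallest total of the series, an alternative chosen after the data were seen, 20 genes were called in place of 22, and 19 of them were among the 22. Libraries of the same group differed by 2.17 to 5.79 per degree of freedom in a chi-square test over genes, above the sampling noise, and libraries of different groups by 12.6 to 17.7.

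The targeted gene was examined first. Nfia had an FPKM of 61.7, 59.7 and 60.7 in the Δpro#3 libraries and of 74.9, 69.7 and 72.7 in the full-length libraries, against 6.81, 5.34 and 6.49 in the Cre libraries. The ctrl libraries held 6.23, 6.75 and 6.43, so the Cre and ctrl libraries overlapped at the level of the whole gene. In cells with an added NFIA the values count transgene and endogenous reads together. They show that both transgenes were expressed, but no value of the whole gene checks the loss of the floxed exon. The log2 difference of the mutant minus full-length NFIA was -0.25 ± 0.07 (SE, n = 3 per group, adjusted p = 0.0406 by limma), and the adjusted p was 0.0689 to 0.129 when any 1 of the 6 libraries was left out and 0.0534 to 0.062 in 5 other alternatives. The related factors Nfib, Nfic and Nfix had log2 differences of 0.19, 0.03 and -0.06, and none of them passed the test.

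Markers were used to check the cell type. The fibroblast and precursor genes Ly6a (FPKM 1812 to 1939), Col1a1 (627 to 896) and Pdgfra (48.1 to 101) were high in all 6 libraries. The precursor markers Dpp4 (0 to 0.0336) and Pi16 (0.418 to 1.34) were low. The leukocyte genes Ptprc, Adgre1, Tyrobp and Cd3e had no read in any of the 6 libraries, and the endothelial gene Pecam1 (0 to 0.056), the epithelial gene Epcam (0 to 0.091) and the mesothelial gene Msln (0 to 0.0362) were near 0. Some other markers of such cells were expressed, among them the macrophage gene Csf1r (0.629 to 3.64). The endothelial gene Tek (1.77 to 6.42) and the mesothelial gene Krt19 (1.84 to 6.60) were expressed too.

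Across all genes the difference between the proteins was small in size. The median log2 difference was -0.0019, with an SD of 0.26 over genes. At an adjusted p under 0.05, 608 genes (5.42%) were higher and 691 (6.16%) were lower with the mutant, and 915 of these 1299 changed by less than 1.5-fold. At least 2-fold changes numbered 26 higher and 96 lower. With a threshold of 3-fold on the log2(FPKM + 1) scale, 22 genes (0.196%) were called, of which 3 had more RNA in the mutant cells and 19 had less. The groups did not overlap for any of the 22, as they did not for 34.9% of all genes tested. Nearest to the threshold were Cd34, called at a log2 difference of -1.60, and Nid2, the basement membrane protein nidogen 2, which passed the adjusted p but was not called, at -1.58. Figures for low genes understate the change in FPKM, because 1 FPKM was added to each value.

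**Figure D1:**
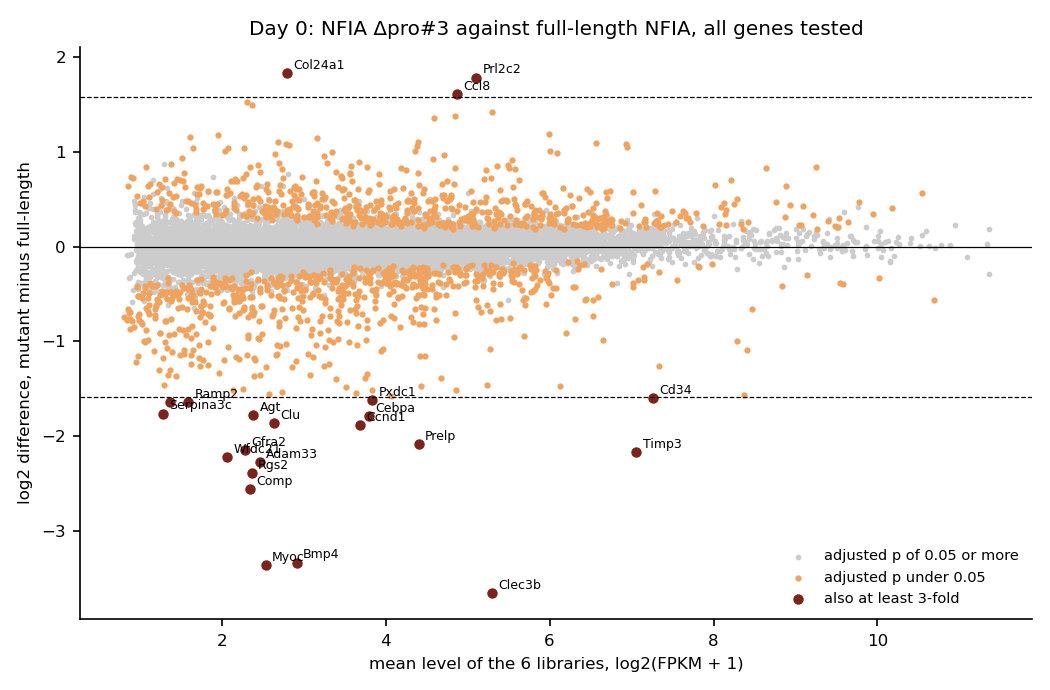
Each point is 1 of the 11217 genes tested, with its mean level in the 6 libraries, log2(FPKM + 1), on the horizontal axis and its log2 difference, mutant minus full-length NFIA, on the vertical axis. Dashed lines mark 3-fold; orange points passed an adjusted p of 0.05, and the 22 dark points, 21 of them named, also passed 3-fold, 19 of them below and 3 above 0.

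With the mutant the largest decreases were in 3 genes for secreted proteins, Clec3b, Myoc and Bmp4. Clec3b (chr9:123060064-123066548, + strand, mm9) encodes tetranectin, a plasminogen-binding lectin. Its FPKM was 4.20, 5.17 and 5.05 in the Δpro#3 libraries and 69.4, 78.6 and 68.5 in the full-length libraries, a log2 difference of -3.66 ± 0.21 (SE, adjusted p = 3.86e-08). Every full-length library was far above the Cre libraries (3.67 to 9.26), and the Δpro#3 libraries lay inside their range.

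Myoc (chr1:164569281-164579824, + strand, mm9) encodes myocilin, a secreted glycoprotein best known from the outflow tissue of the eye. The Δpro#3 libraries held 0, 0 and 2 reads of Myoc and the full-length libraries 183, 200 and 229. Scaled by depth, the reads were 373-fold more abundant with full-length NFIA, with a 95% exact interval from 103 to 3083 that covers counting error only. The 3 Cre libraries held no read of it. On the log2(FPKM + 1) scale the difference was -3.36 ± 0.11 (SE, adjusted p = 2.08e-10).

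Bmp4 (chr14:47003195-47010344, - strand, mm9) encodes a ligand of the BMP family. It had an FPKM of 0.428, 0.277 and 0.380 with the mutant and of 12.8, 11.5 and 14.0 with full-length NFIA, a 35.3-fold gap in the means and a log2 difference of -3.33 ± 0.13 (SE, adjusted p = 8.58e-10). Cre cells had 0.526, 0.251 and 0.243 and ctrl cells 0.517, 0.351 and 0.148, so the full-length libraries stood apart from all 9 other libraries of day 0. From 28 reads in the Δpro#3 libraries together and 813 in the full-length libraries, the depth-scaled ratio had a 95% exact interval of 24.3 to 53.5.

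Other called genes belong to the extracellular matrix and its turnover. Timp3 (chr10:85763117-85812251, + strand), the matrix-bound inhibitor of metalloproteinases, had an FPKM of 50.0, 45.7 and 47.0 with the mutant and of 211, 227 and 213 with full-length NFIA (log2 difference -2.17 ± 0.06, adjusted p = 7.14e-12). Prelp (chr1:135806881-135817991, - strand), a small leucine-rich proteoglycan of basement membranes, had 7.31, 7.46 and 6.44 against 34.2, 36.2 and 29.5 (-2.09 ± 0.12, adjusted p = 3.58e-08). Both genes were also below the Cre libraries with the mutant, which held 64.3, 66.1 and 63.5 for Timp3 and 9.37, 14.0 and 13.1 for Prelp. Comp (chr8:72897447-72905964, + strand), a pentameric matrix protein that binds collagens, had 0.529, 0.302 and 0.613 against 7.04, 8.08 and 7.96 (-2.56 ± 0.11, adjusted p = 2.81e-09). Adam33 (chr2:130876327-130889550, - strand), a membrane-anchored metalloprotease, had 0.787, 1.00 and 0.892 against 9.29, 7.17 and 8.06 (-2.27 ± 0.14, adjusted p = 7.19e-08). Col24a1 (chr3:144955436-145214975, + strand), a minor fibrillar collagen chain, went the other way: it had 11.4, 8.43 and 9.76 with the mutant and 2.25, 1.78 and 2.09 with full-length NFIA (1.83 ± 0.16, adjusted p = 2.33e-06), and the Cre libraries lay with the mutant at 10.2, 7.41 and 12.8.

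The called genes also held receptors, intracellular regulators and secreted proteins. Cebpa (chr7:35904312-35906945, + strand), the adipogenic transcription factor, had an FPKM of 5.68, 4.72 and 5.34 with the mutant and of 19.6, 21.9 and 20.4 with full-length NFIA (log2 difference -1.79 ± 0.10, adjusted p = 3.86e-08). Ccnd1 (chr7:152115836-152125774, - strand) encodes cyclin D1, which carries cells through G1, and had 4.84, 4.14 and 4.56 against 19.9, 19.6 and 18.4 (-1.88 ± 0.09, adjusted p = 7e-09). Cd34 (chr1:196765015-196787486, + strand), a surface sialomucin used to sort precursors, had 69.6, 74.5 and 80.2 against 215, 244 and 228 (-1.60 ± 0.10, adjusted p = 1.08e-07). All 3 were higher in every full-length library than in any other library of day 0. Rgs2, a brake on Gq signalling, Gfra2, the co-receptor for neurturin, and Ramp2, the partner of the adrenomedullin receptor, had log2 differences of -2.39 ± 0.15, -2.14 ± 0.16 and -1.64 ± 0.22. Clu, the extracellular chaperone clusterin, and Agt, the precursor of angiotensin, had -1.86 ± 0.16 and -1.77 ± 0.17. Pxdc1 had an FPKM of 5.31 to 6.73 with the mutant and of 19.2 to 22.7 with full-length NFIA.

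Several called genes were low in level or belong to gene families. Wfdc21, a small secreted protein of the WFDC family, had 8 reads in the Δpro#3 libraries together and 80 in the full-length libraries, a depth-scaled ratio of 12.2 in favour of full-length NFIA (95% exact interval 5.89 to 29.2). Serpina3c, a serine protease inhibitor, had 7 and 144 reads, and it lies in a cluster of near-identical genes whose reads may be hard to assign. Prl2c2 (chr13:13088393-13097659, - strand), a placental hormone of the prolactin family with close copies in the genome, was higher with the mutant, at 49.9, 48.8 and 58.1 against 13.3, 13.1 and 17.1 (1.78 ± 0.13, adjusted p = 2.81e-07), and its assignment is uncertain for the same reason. Ccl8 (chr11:81928687-81930301, + strand), a chemokine that attracts monocytes, was the third called gene that was higher with the mutant, at 43.8, 36.1 and 49.0 against 14.3, 13.5 and 12.2 (1.61 ± 0.18, adjusted p = 2.59e-05), with 29.3, 17.2 and 31.8 in the Cre libraries between them.

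**Figure D2:**
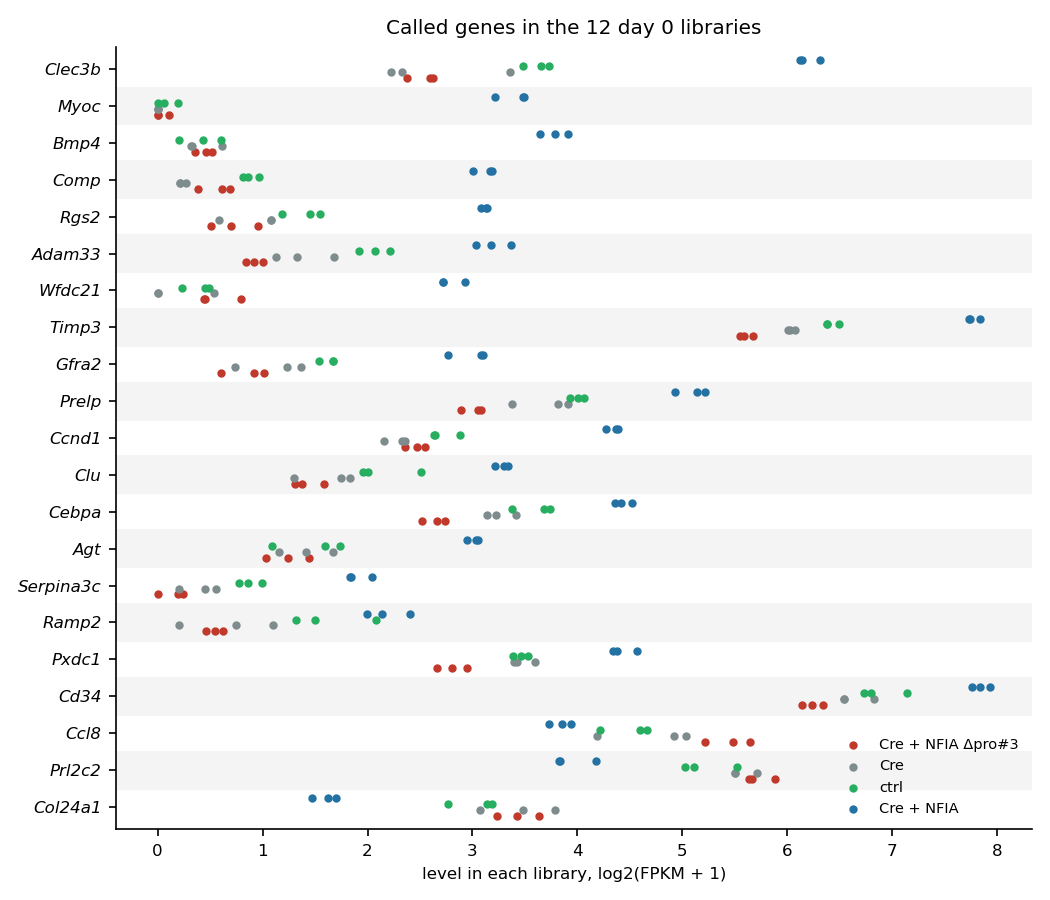
For 21 of the 22 called genes, each point is the level of 1 library at day 0 in log2(FPKM + 1), with 3 libraries per cell type. For the 18 genes shown that were lower with the mutant the full-length libraries (blue) sit to the right of the Δpro#3 libraries (red), and for Col24a1, Prl2c2 and Ccl8 to their left, with no overlap; for Ramp2 alone a ctrl library (green) reaches into the full-length range.

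The promoters of the called genes were read for the letters of the NFI element. RefSeq entries on GRCm38.p6 (not the build of the expression values) were found for 12 of the 22 called genes and 8874 of the 11217 genes tested, and the 250 bases before the start of each were searched. The palindrome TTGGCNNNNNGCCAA was in none of the 12 and in 0.0451% of the tested genes with an entry. The single element TTGGC, on either strand and so also as GCCAA, was in 7 of the 12 (58.3%), in 6 of the 10 that were lower with the mutant and in 50.8% of the tested genes with an entry. Shown are 2 promoters of genes lower with the mutant that hold the element, those of the BMP ligand and of the proteoglycan, and 2 that do not, those of the adipogenic factor and of the metalloproteinase inhibitor, each 5′ to 3′ in the direction of the gene, with the element in capitals.
Bmp4 promoter, GRCm38.p6 chr14:46390670-46390919, - strand: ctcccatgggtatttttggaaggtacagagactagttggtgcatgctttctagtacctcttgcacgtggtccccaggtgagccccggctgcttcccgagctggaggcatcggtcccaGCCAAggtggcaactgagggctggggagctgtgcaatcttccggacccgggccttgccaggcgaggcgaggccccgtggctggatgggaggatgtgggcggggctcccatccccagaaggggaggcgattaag
Prelp promoter, GRCm38.p6 chr1:133921402-133921651, - strand: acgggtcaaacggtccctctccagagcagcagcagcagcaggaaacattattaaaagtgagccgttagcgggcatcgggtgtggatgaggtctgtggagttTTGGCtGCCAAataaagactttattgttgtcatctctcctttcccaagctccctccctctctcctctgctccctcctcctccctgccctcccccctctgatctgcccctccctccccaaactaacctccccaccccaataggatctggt
Cebpa promoter, GRCm38.p6 chr7:35119043-35119292, + strand: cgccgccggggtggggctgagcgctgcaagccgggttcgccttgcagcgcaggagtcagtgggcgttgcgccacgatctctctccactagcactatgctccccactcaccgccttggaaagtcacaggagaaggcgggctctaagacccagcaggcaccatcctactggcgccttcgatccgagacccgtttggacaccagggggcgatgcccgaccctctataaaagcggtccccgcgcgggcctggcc
Timp3 promoter, GRCm38.p6 chr10:86300162-86300411, + strand: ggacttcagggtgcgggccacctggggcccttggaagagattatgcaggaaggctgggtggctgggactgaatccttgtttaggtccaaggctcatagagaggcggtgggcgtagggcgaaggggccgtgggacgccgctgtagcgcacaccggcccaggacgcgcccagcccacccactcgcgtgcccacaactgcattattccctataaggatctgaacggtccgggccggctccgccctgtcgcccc
In Bmp4 the element begins 133 bases before the start, and in Prelp there are 2, at 149 and 143 bases before it, on opposite strands and 1 base apart. The letters in these windows say nothing about where NFIA was bound.

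BMP pathway genes moved in both directions. Of 5 BMP ligand genes tested, all passed the test, 3 lower and 2 higher with the mutant, with a median log2 difference of -0.53 against -0.0019 over all genes tested. Bmp4 and Gdf10 were under an FPKM of 1 in every Δpro#3 library and reached the level filter only through the full-length libraries. Their entry into the test depended on the same difference, so this count and median partly reflect the filter. The counts of this and every other list stand beside 6.16% of all genes tested that were lower and 5.42% that were higher. In any list, a gene low in 1 group could enter the test through the group where it was high. Gdf10, a BMP-related ligand, fell with Bmp4, at an FPKM of 0.364, 0.479 and 0.314 with the mutant against 1.75, 1.64 and 1.90 (-1.0 ± 0.12, adjusted p = 4.09e-05), and so did Bmp6 (-0.53). The 2 that rose were Bmp1 (0.58), which despite its name is a procollagen protease, and Gdf11 (0.34).

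None of 4 BMP receptor genes passed the test; the most abundant, Bmpr1a, had an FPKM of 18.3, 17.3 and 17.5 with the mutant against 15.7, 17.4 and 18.9. Of 11 genes for extracellular BMP antagonists and modulators, 3 were lower (Smoc1 -0.92, Bmper -0.71 and Fst -0.44) and 2 higher, among them Fstl3 (0.57). Of 10 genes known to respond to BMP signals, 4 were lower: Atoh8 (-0.68), Smad6 (-0.50), Smad9 (-0.39) and Smad7 (-0.37). Smad6 and Smad7 are feedback inhibitors of the pathway. Id1, Id2 and Id3, its classic targets, had log2 differences of -0.17, -0.11 and 0.04 and did not pass. Msx2 was higher (0.39, adjusted p = 0.036), with an adjusted p of 0.0647 to 0.156 when any library other than the first full-length replicate was left out, and of 0.0544 to 0.0683 with no filter on low values, voom or thinned reads.

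Early adipogenic regulators were lower with the mutant wherever they passed the test. Of 21 tested, 7 were lower and none higher, with a median of -0.16, where 6.16% of all genes tested were lower. Pparg had an FPKM of 2.52, 3.12 and 2.39 with the mutant and of 4.89, 7.25 and 6.50 with full-length NFIA (log2 difference -0.96 ± 0.15, adjusted p = 0.000389), and the Cre libraries, at 3.35, 3.01 and 2.15, lay with the mutant. After Cebpa and Pparg came Egr2, also known as Krox20, an early factor of the adipogenic cascade, at 1.68, 1.26 and 1.88 against 3.13, 3.54 and 2.93 (-0.69 ± 0.12, adjusted p = 0.00146). For Egr2 the Cre libraries, at 2.46, 3.66 and 2.70, overlapped the full-length libraries and lay above the mutant. For Cebpa the Cre libraries held 7.79, 9.65 and 8.34, above the mutant and below full-length NFIA. Klf4 (-0.44), Zfp423 (-0.41), Ebf1 (-0.39) and Creb5 (-0.37) were lower too. Cebpb and Cebpd, the C/EBP factors induced first in differentiation, did not pass, with log2 differences of -0.02 and -0.28.

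Genes of mature fat were mostly low at day 0. Of 17 adipocyte genes tested, 4 were lower with the mutant and none higher, where 6.16% and 5.42% of all genes tested were: Plin4, a lipid droplet coat protein (FPKM 3.22, 3.82 and 3.55 against 8.95, 10.3 and 9.06, log2 difference -1.20), G0s2 (-0.76), Lpl (-0.56) and Plin2 (-0.22). G0s2, an inhibitor of the lipase ATGL, did not pass when the first replicate of either group was left out (adjusted p 0.0528 and 0.0674), nor with thinned reads (0.0963), a pseudocount of 0.1 (0.0542) or all 24 libraries in the model (0.0637). Fabp4, the fatty acid carrier, had 22.3, 30.4 and 26.3 with the mutant and 20.8, 15.7 and 18.2 with full-length NFIA, and did not pass (0.50 ± 0.18, adjusted p = 0.0863). It did pass when only the groups compared were in the model (adjusted p = 0.00679) and with voom (0.0447).

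Most thermogenic and skeletal muscle genes stayed below the level filter in both groups. Of 17 thermogenic genes 4 reached the level filter and none passed the test. Ucp1, the uncoupling protein of brown fat, had 0 reads in all 6 libraries, where 3 reads in the shallowest library would be an FPKM of 0.193. Myod1, the master regulator of muscle, had 0 reads as well (limit 0.171), and Myog had 2 reads in 1 Δpro#3 library and 0 in the other 5. Of 34 skeletal muscle genes 3 were tested, and only Mef2a passed (-0.65). Of 19 smooth muscle and contractile genes tested, 3 were higher with the mutant (Cnn2 0.44, Tpm1 0.35 and Tpm2 0.35), 1 was lower (Smtn -0.44), and Myl9 did not pass (0.10, adjusted p = 0.625). Myl9 was below Cre with either protein, by a log2 difference of -0.93 for the mutant and -1.03 for full-length NFIA.

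**Figure D3:**
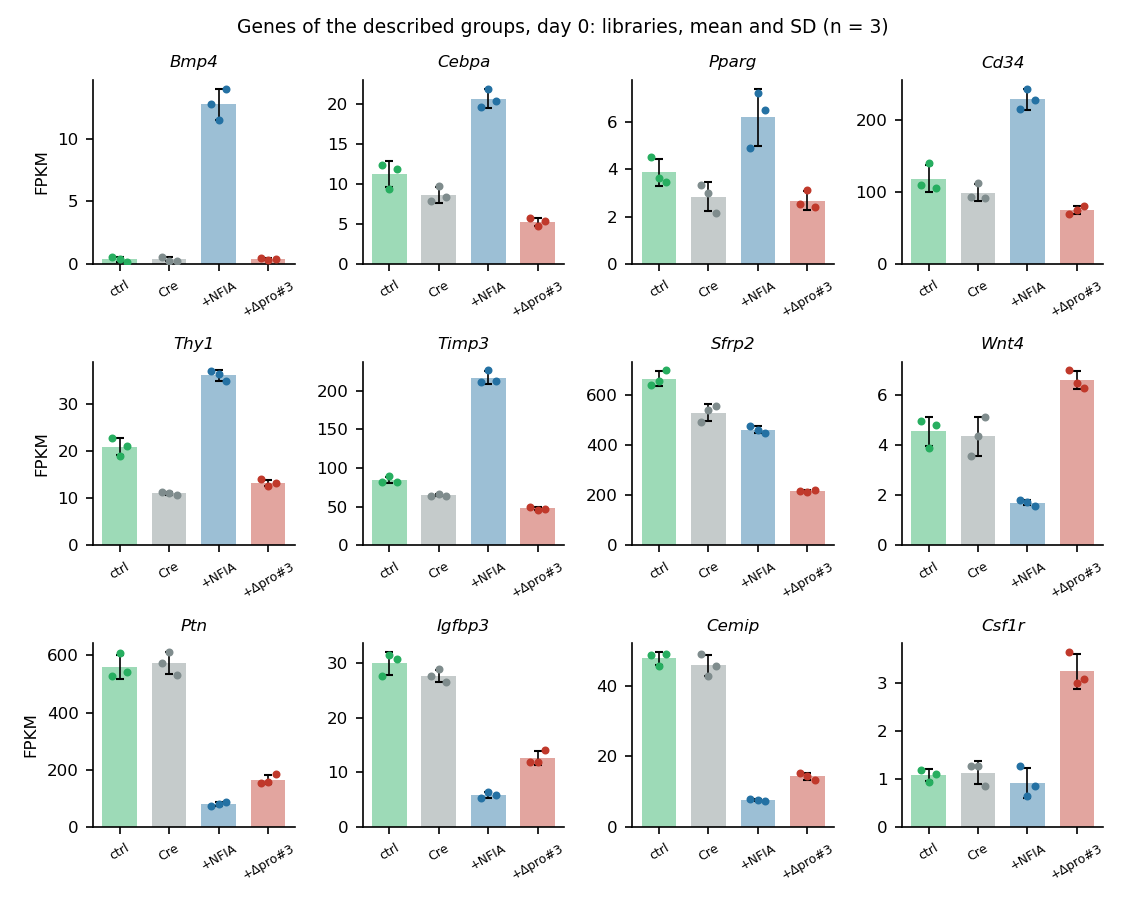
Bars show the mean FPKM of 3 libraries at day 0 in the 4 cell types (those with NFIA or Δpro#3 also carry Cre), error bars the SD, and points the single libraries, for 12 genes of the groups described. Bmp4, Cebpa, Pparg, Cd34, Thy1 and Timp3 were highest with full-length NFIA, Wnt4 was lowest with it, Sfrp2 was lowest with the mutant, Ptn, Igfbp3 and Cemip with the mutant lay between Cre and full-length NFIA, and Csf1r was highest with the mutant.

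Surface markers of precursors differed in both directions. Of 16 tested, 6 were lower and 4 higher with the mutant (6.16% and 5.42% over all genes tested), and their median was -0.04. After Cd34 the largest decrease was in Thy1, a glycoprotein of fibroblasts, at an FPKM of 14.0, 12.6 and 13.1 against 36.9, 36.3 and 34.8 (log2 difference -1.38 ± 0.07, adjusted p = 1.08e-08). Pdgfra, the PDGF receptor that marks adipocyte precursors, had 50.0, 48.1 and 51.8 against 92.5, 91.0 and 101 (-0.91 ± 0.06, adjusted p = 1e-07), and the endothelial and stromal TGF-beta co-receptor Eng had -0.85. F3, the tissue factor, known also as CD142, rose, with 84.1, 80.8 and 90.1 against 40.1, 43.2 and 41.7 (1.01 ± 0.06, adjusted p = 8.03e-08), and Pdgfrb rose by a smaller amount (0.39). Ly6a, which encodes Sca-1, did not pass (0.02, adjusted p = 0.912). In bulk RNA, fewer cells of a type and less RNA per cell cannot be told apart.

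A few genes that are markers of other cell types also differed. Csf1r, the receptor of the macrophage growth factor, had an FPKM of 3.64, 2.98 and 3.07 with the mutant against 1.26, 0.629 and 0.843 (log2 difference 1.16 ± 0.13, adjusted p = 3.25e-05), and it was the only 1 of 4 macrophage markers tested that passed. The summed FPKM of the 11 macrophage and leukocyte markers was 19.9 to 22.5 with the mutant and 16.1 to 17.7 with full-length NFIA, with 4 of the 11 at 0. Tek, the angiopoietin receptor, had 2.22, 1.77 and 2.30 against 5.77, 6.42 and 5.36 (-1.15 ± 0.11), and the summed level of 10 endothelial markers was 5.35 to 5.83 against 10.3 to 11.2. Kdr, the most abundant of them with the mutant, did not pass, and Pecam1, Cdh5, Vwf, Emcn and Cldn5 were at most 0.132 in any of the 6 libraries. Mcam (-1.18) was 1 of 2 mural markers tested and Krt19 (-1.18) the only mesothelial marker tested; the defining mural genes Kcnj8 and Abcc9 and the mesothelial genes Lrrn4 and Upk1b had no read. The summed levels were 7.45 to 8.03 against 10.8 to 11.7 for 8 mural markers and 1.97 to 2.84 against 6.06 to 6.75 for 6 mesothelial markers. The part of other cell types in the differences between the groups was not tested.

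Secreted Wnt modulators and ligands were split. Of 11 tested, 4 were lower and 3 higher with the mutant (median -0.21). Sfrp2, a secreted Wnt antagonist, had an FPKM of 216, 212 and 220 with the mutant and of 474, 458 and 448 with full-length NFIA (log2 difference -1.09 ± 0.06, adjusted p = 1.49e-08). The Cre libraries held 491, 540 and 554 and the ctrl libraries 640, 655 and 697, so both proteins lay below all of them, the mutant farther (log2 difference from Cre -1.28) than full-length NFIA (-0.20). Wnt4 had 7.01, 6.49 and 6.31 against 1.79, 1.72 and 1.59 (1.49 ± 0.11, adjusted p = 4.69e-07), and Notum, an enzyme that inactivates Wnt proteins, had 4.69, 4.68 and 4.69 against 2.04, 1.63 and 1.62 (1.04 ± 0.13, adjusted p = 8.17e-05). Wnt5b (-0.60), Wnt10b (-0.54), the antiadipogenic ligand, and Wnt16 (-0.37) were lower. Of 5 Wnt target genes tested, Wisp1 (0.58) and Wisp2 (0.38) were higher and Ccnd1 lower.

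TGF-beta, IGF and heparin-binding factors each held genes of both directions. Among 19 TGF-beta pathway genes 6 were higher and 6 lower; Tgfbi, an adhesion protein induced by TGF-beta, had an FPKM of 55.4, 54.4 and 58.5 against 19.7, 20.2 and 21.0 (log2 difference 1.42 ± 0.09, adjusted p = 1.17e-07), while Ltbp2, which binds microfibrils, had -1.10, and the ligands Tgfb2 and Tgfb3 had -0.73 and -0.65. Among 9 genes of the IGF axis 3 were higher and 2 lower. Igfbp3, an IGF carrier, had 11.8, 11.9 and 14.1 against 5.23, 6.29 and 5.85 (1.00 ± 0.08, adjusted p = 1.37e-06), and Stc1, which inhibits the protease that frees IGF, had 0.45, 0.587 and 0.460 against 2.93, 2.77 and 2.37 (-1.30 ± 0.12, adjusted p = 2.44e-06). Among 12 heparin-binding growth factors and FGFs, Fgf2 fell (-1.19 ± 0.27, adjusted p = 0.00787), and Ptn, Sdc1 (0.51) and Sdc3 (0.39) rose.

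For a set of genes that were lower with either protein than in Cre cells, the mutant lay between. Ptn, the heparin-binding growth factor pleiotrophin, had an FPKM of 574, 612 and 533 in Cre cells, of 153, 157 and 184 in Δpro#3 cells and of 72.0, 78.9 and 86.7 in full-length cells. Its log2 difference was 1.05 ± 0.09 between the proteins (adjusted p = 1.11e-06), -1.79 for the mutant minus Cre and -2.84 for full-length NFIA minus Cre. Cemip, a hyaluronan-degrading protein, had 49.0, 42.9 and 45.7, then 15.2, 14.4 and 13.3, then 7.74, 7.47 and 7.20 in the same order (0.85 ± 0.07, adjusted p = 8.08e-07, with -1.61 and -2.47 against Cre). Igfbp3 followed the same order, with 27.6, 28.8 and 26.6 in Cre cells, and so did Npnt, the integrin ligand nephronectin (0.49 ± 0.10, adjusted p = 0.00421; -1.88 and -2.37 against Cre), although with a pseudocount of 5 Npnt did not pass (adjusted p = 0.0718). Lrrc17, a secreted leucine-rich protein, was below Cre with either protein (-2.05 and -2.20), and the proteins themselves did not differ beyond the error (0.15 ± 0.10, adjusted p = 0.378). These contrasts share the Cre libraries and the 6 libraries compared, so they are given as values only.

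Other matrix genes differed in both directions. Of 7 small leucine-rich proteoglycans tested, 4 were lower with the mutant and none higher (median -0.38), against 6.16% lower and 5.42% higher over all genes tested. Next to Prelp these were Dcn, the collagen-binding proteoglycan decorin, at an FPKM of 5.41, 5.34 and 3.65 against 16.3, 13 and 13.3 (log2 difference -1.40 ± 0.13, adjusted p = 3.99e-06), Podn (-1.09) and Bgn (-0.38). Podn was under an FPKM of 1 in every Δpro#3 library and reached the level filter only through the full-length libraries, so its count partly reflects the filter. Of 22 collagen chains 7 were higher and 3 lower (median 0.15), the higher ones including Col27a1 (0.88), Col7a1 (0.72), Col3a1 (0.70) and Col1a2 (0.33) and the lower ones Col18a1 (-0.77), Col4a6 (-0.33) and Col4a5 (-0.22). Col4a1 and Col4a2 did not pass (0.16 and 0.12). Eln, the elastin gene, had 0.791, 0.423 and 0.366 against 2.90, 3.30 and 2.54 (-1.36 ± 0.15, adjusted p = 1.9e-05), whereas most of the 16 elastic fibre genes tested did not pass (3 lower, 2 higher).

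Among 20 basement membrane and adhesion proteins 6 were lower and 7 higher. Nid2 had an FPKM of 7.03, 8.08 and 7.05 against 24.8, 24.5 and 22.8 (log2 difference -1.58 ± 0.08, adjusted p = 1.08e-08), Lama4 (-0.87) and Fn1 (-0.57) were lower, and the thrombospondins Thbs3 (0.93), Thbs2 (0.64) and Thbs1 (0.46) were higher. Of 26 matrix proteases and inhibitors 8 were lower, with Timp3, Serpine2 (-0.95) and Reck (-0.79), which are all inhibitors, showing the largest decreases, and 10 were higher, the largest being Adamts7 (0.60), Plat (0.59) and Serpinf1 (0.59). Timp1 rose (0.47) while Timp3 fell. Of 10 hyaluronan genes 3 were higher and 2 lower, among them Tnfaip6, which crosslinks hyaluronan (-1.04). Of 9 integrin genes Itgb7 (0.94) and Itgb5 (0.58) were higher and Itga6 (-0.71) lower.

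Inflammatory signals differed gene by gene. Of 23 chemokines and cytokines tested, 8 were higher and 5 lower (median 0.01). With Ccl8, the eosinophil attractant Ccl11 (0.87) and the monocyte attractants Ccl2 (0.56) and Ccl7 (0.47) were higher, and so was Il1rl1, the receptor of IL-33, at an FPKM of 32.5, 31.8 and 37.1 against 11.6, 12.8 and 13.2 (log2 difference 1.36 ± 0.10, adjusted p = 3.17e-07). Ccl9 had 5.84, 6.14 and 7.16 against 17.3, 20.7 and 22.3 (-1.51 ± 0.11, adjusted p = 3.23e-07), and Tslp (-0.91) and Cx3cl1 (-0.82) were lower. C3, the central complement component, had 208, 223 and 194 against 429, 411 and 406 (-0.99 ± 0.06, adjusted p = 8.03e-08), and C4b had -0.77; of 12 complement genes 3 were higher and 3 lower.

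The cell cycle, interferon and p53 lists are read against 5.42% higher and 6.16% lower over all genes tested. Of 36 cell cycle and replication genes only Rrm2, a subunit of ribonucleotide reductase, passed (-0.43). The cyclin gene Ccnd1, called at -1.88, was counted among the Wnt target genes and not in this list. Of 33 interferon-stimulated genes 2 were higher and 1, Oasl1 (-0.73), lower, and of 21 p53 target genes 3 were lower, Ei24 (-0.40) the most, and none higher. Isg15, 1 of the 2 higher interferon genes, and the p53 targets Plk2 and Gadd45a did not pass in some alternatives. With 1 library left out, their adjusted p reached 0.0967, 0.0892 and 0.147. Among 18 angiogenic factors 4 were higher and 4 lower, with Sema3f at an FPKM of 5.32, 5.77 and 4.94 against 17.4, 17.9 and 17.3 (log2 difference -1.55 ± 0.12, adjusted p = 4.58e-07) and Angptl4, a lipase inhibitor and PPAR target, at -0.85.

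**Figure D4:**
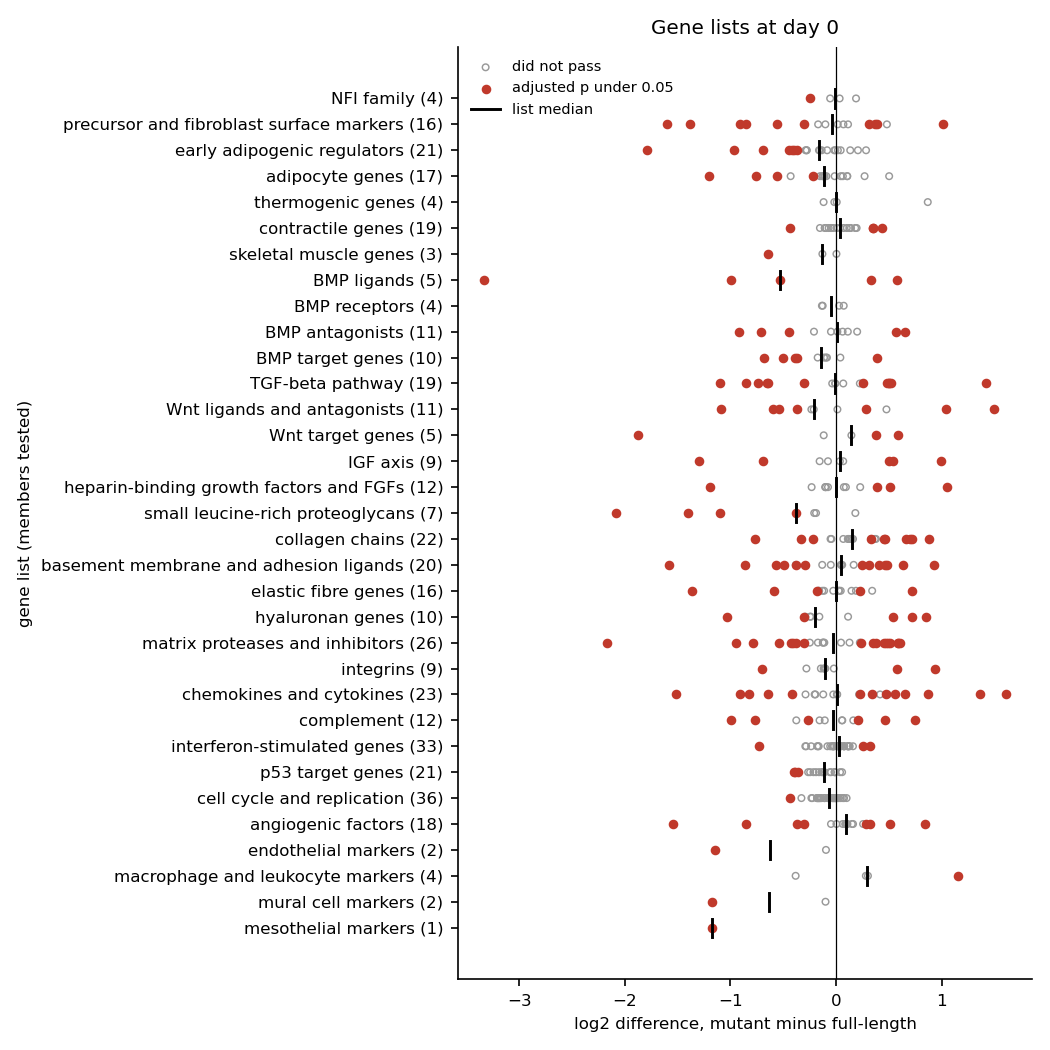
Each point is a tested member of a gene list and its log2 difference, mutant minus full-length NFIA, on the horizontal axis; red points passed an adjusted p of 0.05, open points did not, and black bars are list medians. Early adipogenic regulators, adipocyte genes, small leucine-rich proteoglycans and p53 target genes have several red points, all on the left side. Some other lists have a single red point, on the left. Bmp4 lies farthest out at -3.33.

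At day 7 of differentiation the difference between the proteins was examined again in libraries not used at day 0. Of all genes tested, 70.9% passed the day 7 comparison of the mutant with full-length NFIA, both directions together. The share in each direction was not counted, so the counts by direction that follow have no background of their own. Of the 19 genes that were lower with the mutant at day 0, 13 were lower again, 4 were higher and 2, Prelp and Pxdc1, did not pass, and the 3 genes that were higher at day 0 were higher again. The 4 that turned were Timp3, Ccnd1, Adam33 and Cd34. Timp3 had an FPKM of 85.7, 84.8 and 77.9 with the mutant and of 44.3, 45.3 and 46.1 with full-length NFIA at day 7 (log2 difference 0.86 ± 0.08), and Ccnd1 had 22.0, 21.0 and 16 against 11.4, 13.7 and 12.7 (0.59 ± 0.10).

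Cebpa and Wfdc21 were farther apart at day 7. Cebpa had an FPKM of 16.8, 29.1 and 29.5 with the mutant and of 160, 167 and 162 with full-length NFIA (log2 difference -2.69 ± 0.17), and Wfdc21 had 0.587, 0.566 and 1.08 against 123, 144 and 118 (-6.22 ± 0.22). Bmp4 and Myoc were lower with the mutant at both days, but in the full-length cells they fell to 2.71, 2.03 and 2.42 for Bmp4 and to 0.823, 0.540 and 0.625 for Myoc. Rgs2 had a log2 difference of -2.39 at day 0 and of -2.70 at day 7, and the change between days did not pass (adjusted p = 0.162).

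A test of the day 7 minus the day 0 difference passed for 18 of the 22 genes and for 61.1% of all genes tested. The day 0 difference enters both the choice of the 22 genes and this test. With the 3-fold threshold 641 of the 11217 genes were called in it, 296 upward and 345 downward, and the median of all genes was 0.13 on the log2 scale, or 0.01 with median-of-ratios size factors, under which 207 were upward and 408 downward (33.7% in place of 46.2% upward).

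**Figure D5:**
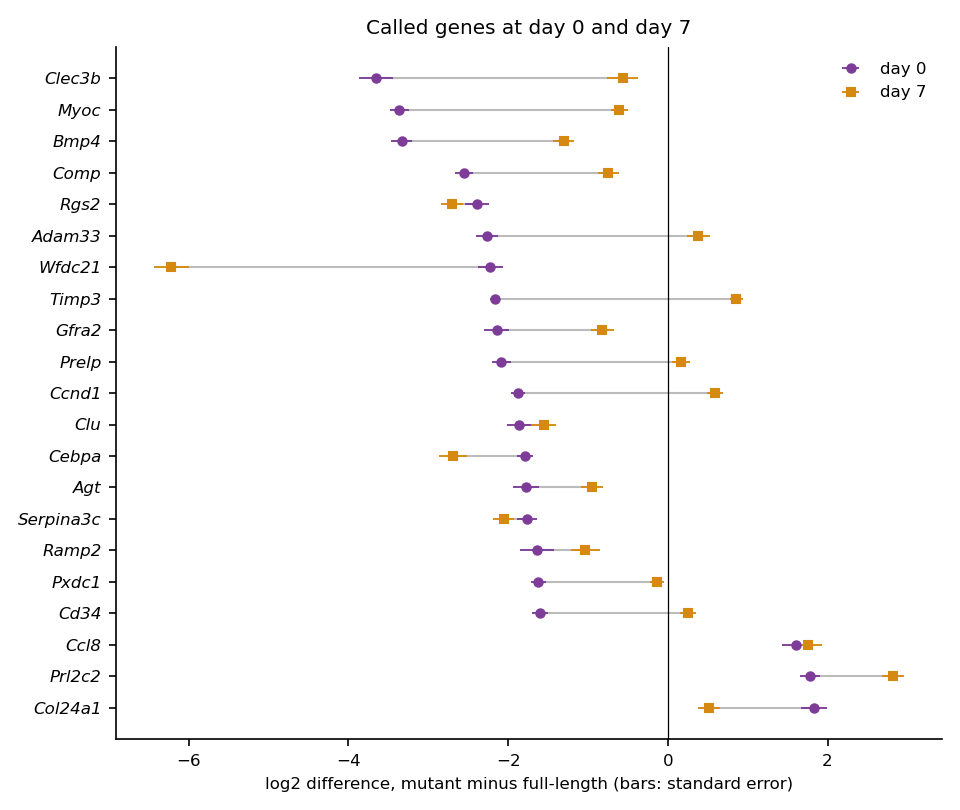
For 21 of the 22 called genes, circles show the log2 difference, mutant minus full-length NFIA, at day 0 and squares that at day 7, with standard errors as bars and 3 libraries per group. Clec3b, Timp3, Myoc and Adam33 lie to the right at day 7 by 2.65 to 3.09, and Wfdc21 lies to the left by 4.0. Timp3, Ccnd1, Adam33 and Cd34 cross 0, and so does Prelp, which did not pass the day 7 comparison.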

How the data were processed

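Polyadenylated RNA was sequenced with stranded libraries. The authors aligned the reads to the mm9 genome with STAR 2.5.3a, as their processing notes name it, kept uniquely aligned reads, counted the matching strand and deposited FPKM per gene. FPKM times length came out as whole reads (within 0.05 read) for 100% of values, so reads and library totals were recovered. 3 reads were taken as the smallest shown expression. Values were tested as log2(FPKM + 1) with limma 3.58.1 (R 4.3.3, mean-variance trend, two-sided, Benjamini-Hochberg over 11217 genes) on the 12 libraries of day 0, or on all 24 for the comparison of days. A gene was called at an adjusted p under 0.05 and at least 3-fold. The branch for count tables was not used. The fits were tested on simulated data.

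Named are all called genes, genes the study is about, and the most changed members of 35 gene lists, up to 3 per list, with a few genes named in earlier results. The members and lists were chosen with earlier results of these data known. Other list members given in the text were picked after their values were seen. 26 date-like symbols and 4 rows with a repeated symbol were not named, and 1 called gene and 1 list member are not reported here. Gene positions come from the GENCODE vM1 annotation of NCBIM37 (mm9). Promoters are from RefSeq on GRCm38.p6. Alternatives were other pseudocounts, filters, scalings, models, voom, a replicate block, a 2-fold threshold, leaving out each library and, chosen after seeing the data, thinned reads.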

Additional observations from a re-analysis of the deposited data

Results flagged for a closer look

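For 18 of the 22 genes called at day 0, a test of the interaction between protein and day passed an adjusted p of 0.05 (limma, all 24 libraries), so the log2 difference, mutant minus full-length NFIA, was not the same at the 2 days. The values that follow, for 17 of them, are the day 7 minus the day 0 difference on the log2(FPKM + 1) scale. A positive value means that the mutant cells stood higher relative to the full-length cells at day 7 than at day 0.

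Among genes that were lower with the mutant at day 0, the value was 3.09 for Clec3b, 3.02 for Timp3, 2.76 for Myoc, 2.65 for Adam33, 2.47 for Ccnd1, 2.25 for Prelp, 2.03 for Bmp4, 1.85 for Cd34 and 1.81 for Comp. It was 1.48 for Pxdc1, 1.32 for Gfra2, 0.83 for Agt and 0.60 for Ramp2. For Cebpa it was -0.90 and for Wfdc21 -4.00, since both differed more at day 7. Among genes that were higher with the mutant at day 0, it was 1.04 for Prl2c2, which differed more at day 7, and -1.32 for Col24a1, which had fallen under an FPKM of 1 in all 6 libraries of day 7. The sign for Col24a1 depends on the 1 FPKM added to each value: its ratio of mean FPKM, mutant over full-length NFIA, was 4.84 at day 0 and 9.11 at day 7, where 133 and 16 reads were counted. For other low genes the added FPKM affects the size, so the order above is not an order of FPKM ratios. The ratio at day 0 and day 7 was 0.0026 and 0.143 for Myoc, with 7 and 56 reads at day 7. It was 0.128 and 0.410 for Ramp2, and 0.116 and 0.200 for Gfra2.

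The median of this measure over all genes tested was 0.13, and 61.1% of them passed the same test. The day 7 libraries followed 7 days of differentiation, and the cause of these differences was not tested.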

How the results depend on the processing

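The count of 22 called genes at day 0 was 73 with a pseudocount of 0.1, 4 with a pseudocount of 5, 12 with a mean FPKM of at least 5, 86 with voom on the recovered reads, and 122 at a 2-fold threshold; it lay between 20 and 25 with each library left out and was 20 with thinned reads. A larger pseudocount shrinks low genes by construction. Each of the 22 passed the adjusted p in every alternative in which it was tested. The 1299 genes that passed the adjusted p became 2103 with only the groups compared in the model, and 871 to 1025 with each library left out. The 641 genes called between days became 1074 with a pseudocount of 0.1, 316 with a pseudocount of 5, 1138 with voom and 613 to 673 with each library left out; the share upward was 46.2%, 64.8% with voom, 35.9% with no filter on low values and 33.7% with median-of-ratios size factors. The cause of the other shifts was not tested. No named gene reversed. Among 105 named genes tested, 8 lost the adjusted p in at least 1 alternative and 1, Fabp4, gained it. Of 625 list medians, each of 1 list in 1 alternative, 50 moved by more than 1 SD. These 50 came from 21 of the 33 lists with a median.

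With the replicate block, 22 genes were called, all 22 among those called without it, 1301 passed the adjusted p (1208 shared) and 641 were called between days. Same-numbered libraries of the groups had correlations of deviations of 0.0637 to 0.117 at day 0, each best with its own number, and of -0.175 to -0.000346 at day 7; whether the numbers pair the samples is not given, and they were not taken as pairs. FPKM values near 3 reads, and the 3 libraries per group, limit what low genes can show.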
